A study of Homo sapiens with 8 samples.

Results

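The genes described here encode 10 glycosyltransferases that place O-glucose, O-fucose or O-linked N-acetylglucosamine on epidermal growth factor (EGF) repeats or thrombospondin repeats, or that lengthen those sugars. They are POGLUT1, POGLUT2, POGLUT3, GXYLT1, GXYLT2, XXYLT1, POFUT1, POFUT2, LFNG and EOGT. They were chosen by name from the 58395 genes of the count table. All 10 were among the 15637 genes with enough reads to be tested.

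The libraries came from AB8, a human line derived from podocytes, the filtration cells of the kidney glomerulus. All 8 libraries carried the modification pIND21_hCrb2+GFP_S267A, an inducible human CRB2 construct with GFP and the S267A change, and were taken at passage 3 to 8 after modification. In 4 libraries (woDox, non-induced) no induction was made, and in 4 (Dox, induced) doxycycline was given for 48 h. Libraries from cells given doxycycline without the construct, or carrying unchanged CRB2, were not analysed here, so effects of the drug, of raised CRB2, of GFP and of the S267A change cannot be told apart.

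As background, these enzymes work in the endoplasmic reticulum and Golgi on folded repeats of secreted and membrane proteins. POGLUT1 puts glucose on a serine between the first cysteines of many EGF repeats, and GXYLT1 or GXYLT2 and then XXYLT1 add xylose to that glucose. POFUT1 puts fucose on EGF repeats, where the fringe enzymes, LFNG among them, add N-acetylglucosamine. EOGT places N-acetylglucosamine directly on EGF repeats. Notch receptors and Crumbs proteins are classic substrates, and loss of CRB2 in podocytes is known as a cause of proteinuric kidney disease.

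The serine that the label S267A names lies in an EGF repeat of CRB2. The stretch around it is shown because its cysteine spacing is what POGLUT1 reads. In the GENCODE 29 transcript ENST00000373631.7, which has 1285 coding codons, the codon that S267A names is a serine codon (TCG) in exon 5 of CRB2, at GRCh38 chr9:123367216-123367218. The 75 bases below are chr9:123367180-123367254 on the plus strand, and the named codon is the third codon of the capitals. The 18 capital bases run from the cysteine codon 2 codons before the serine to the cysteine codon 3 codons after it, with a proline codon 2 after it.
CRB2, codon of S267A: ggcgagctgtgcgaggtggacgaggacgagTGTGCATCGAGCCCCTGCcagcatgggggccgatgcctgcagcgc
This spacing, cysteine, any residue, serine, any residue, proline or alanine, cysteine, is the known consensus for the O-glucose that POGLUT1 adds. Whether this serine carries O-glucose was not tested. Whether the deposited reads carry the change was not analysed here, since the files hold counts per gene.

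The 8 libraries held 16829454 to 23081616 counted reads, with 23636 to 24545 genes detected. CRB2 rose from 20.6 ± 8.47 to 3766 ± 1363 CPM (reads scaled to a common library size; SD, n = 4 per group), with edgeR's quasi-likelihood adjusted p = 0.0016. Of 10 podocyte markers 6 were tested, with a summed level of 264 to 305 CPM in non-induced and 293 to 314 CPM in induced libraries, most of it CD2AP (229 ± 16.6 and 245 ± 7.52 CPM). NPHS1, which encodes the slit diaphragm protein nephrin, had 3 reads in all libraries together, so this defining marker of mature podocytes was nearly absent. Marker sums per library were 2.38 to 5.74 CPM for endothelial, 3.88 to 4.15 CPM without and 2.62 to 3.32 CPM with induction for leukocyte, 0.84 to 2.1 CPM for tubular and 12.9 to 18.8 CPM for mesangial lists, with KDR, EMCN, TYROBP, UMOD, LRP2 and ITGA8 at 0 reads. With the block described next, 1 podocyte marker, PODXL (2.64 ± 0.631 to 3.72 ± 0.456 CPM, edgeR adjusted p = 0.035), and 1 mesangial marker, PDGFRB (11.9 ± 0.814 to 15.2 ± 2.22 CPM, 0.0299), were higher after induction. The leukocyte sum did not overlap between groups, and of single tested genes 7.04% did not. CSF1R was at 1.86 ± 0.233 and 1.19 ± 0.265 CPM (edgeR adjusted p = 0.0586 with the block) and LST1 at 1.16 ± 0.29 and 0.771 ± 0.126 CPM (0.129). Both were lower in 4 of 4 pairs and were named after their values were seen. The list was mixed: CD68 (0.604 ± 0.218 and 0.683 ± 0.138 CPM) and CD14 (0.38 ± 0.191 and 0.45 ± 0.0933 CPM) had higher means after induction. PTPRC had 1 read in all. The part of these markers in the results was not tested. WT1, a podocyte transcription factor, was at 3.18 ± 1.68 and 2.54 ± 1.47 CPM (0.211). The libraries numbered 1 stood apart from the rest of both groups, and same-numbered libraries deviated together. Each test is therefore given without and with the replicate number as a block, and values listed per library run from number 1 to number 4.

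None of the 10 glycosyltransferase genes passed the test without the block, and 2 did with it, both higher after induction: POGLUT3 and GXYLT1. Their fold changes were small, 1.13 (95% interval 1.06 to 1.20) for POGLUT3 and 1.16 (1.06 to 1.26) for GXYLT1. Without the block, edgeR called 6 of 15637 genes at an adjusted p under 0.05, 0.0384% of those tested. An unadjusted p under 0.05 was found for 0 of the 10 and for 1466 of the 15637 tested genes. With 10 genes, this count of 0 does not set them apart from all genes. GXYLT1 came nearest, at an unadjusted edgeR p of 0.0565. With the block edgeR called 2159 genes, 13.8%, of which 1175, 7.51%, were higher in induced cells. So 2 of 10 higher stands against 7.51% of all genes, and 2 of 10 in either direction against 13.8%, with 0 of 10 lower. DESeq2 called 0 of the 10 without the block, where it called 188 of all genes, and 0 of the 10 with it, where it called 1048. The median log2 change of the 10 was 0.033 without and 0.042 with the block, beside 0.00059 and 0.00028 over all tested genes. Separate cultures are not named in the labels, and each p-value rests on the spread among these libraries, which may be technical. Fewer cells making a transcript cannot be told apart from less of it per cell.

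**Figure D1:**
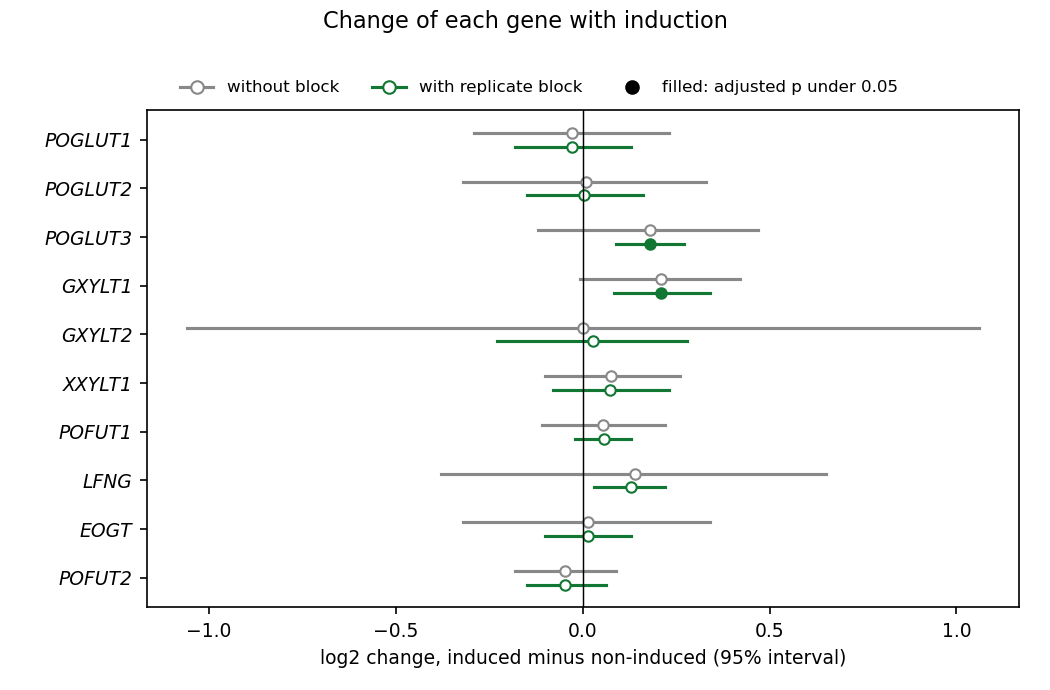
Log2 change of each gene between induced and non-induced libraries (horizontal axis), with bars for the 95% interval, without the block in grey and with the replicate block in green. Filled points mark an adjusted p under 0.05, which only POGLUT3 (0.18) and GXYLT1 (0.21) reached, both with the block.

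Levels were compared between genes after dividing CPM by the length of the annotated exons in kilobases. In non-induced cells POFUT1 was highest at 29.2 ± 2.38 CPM per kb (SD, n = 4), followed by LFNG at 17.6 ± 3.83 and POGLUT3 at 12.7 ± 1.89. POFUT2 (7.65 ± 0.411), GXYLT1 (5.92 ± 0.783), POGLUT2 (5.83 ± 0.77), EOGT (5.31 ± 0.827) and XXYLT1 (3.87 ± 0.276 CPM per kb) came next. POGLUT1, whose consensus spacing is shown above, was at rank 9 with 2.90 ± 0.238 and GXYLT2 last with 1.23 ± 0.941 CPM per kb. Ranges over the 4 non-induced libraries overlapped for the neighbours LFNG and POGLUT3, GXYLT1 and POGLUT2, POGLUT2 and EOGT, and EOGT and XXYLT1, and did not overlap for the other neighbouring pairs. The order in the middle depends on the length used. With the longest transcript of each gene XXYLT1 moved up from rank 8 to rank 5 with 7.68 CPM per kb. GXYLT1 fell from rank 5 to rank 8 with 5.92 CPM per kb. POGLUT1 reached 5.72 CPM per kb but stayed at rank 9. The ranks of POFUT1, LFNG, POGLUT3, POFUT2, POGLUT2, EOGT and GXYLT2 were as before.

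**Figure D2:**
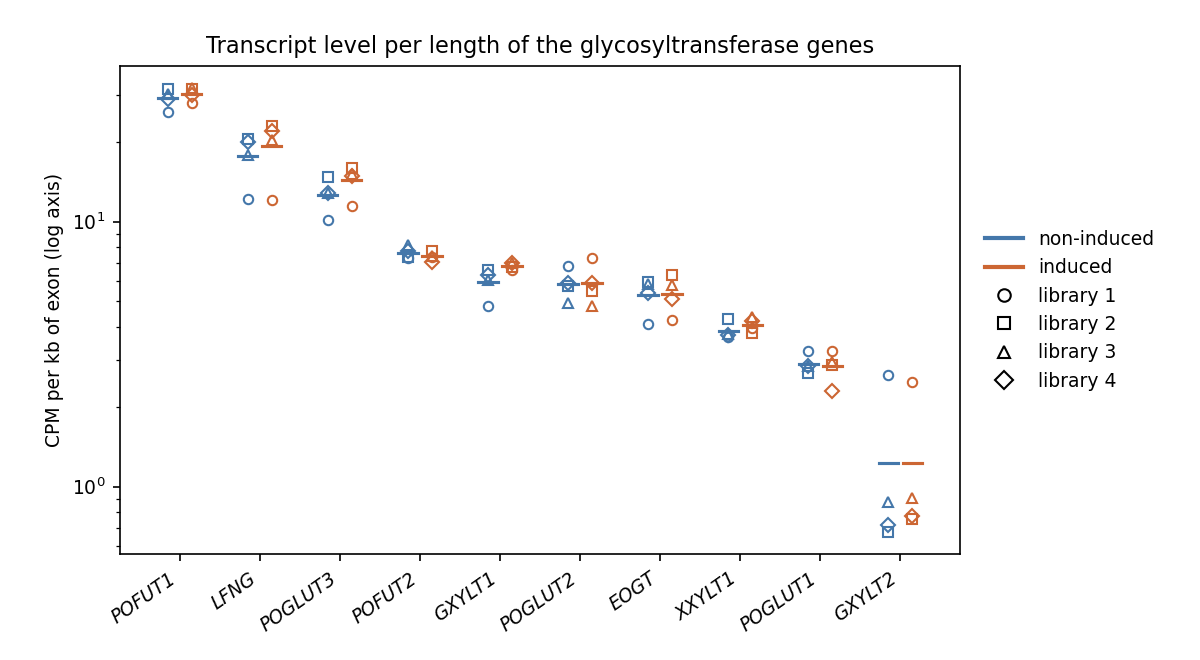
CPM per kb of exon (vertical log axis) of each gene in every library, non-induced in blue and induced in orange, with a bar at the group mean and a marker shape per library number. POFUT1 lies highest in both groups, and GXYLT2 spans the widest range because the libraries numbered 1 lie above the other 3 in each group.

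The enzymes that start O-glucosylation are POGLUT1, POGLUT2 and POGLUT3. POGLUT2 and POGLUT3, formerly KDELC1 and KDELC2, glucosylate a different serine of some EGF repeats than POGLUT1 does. POGLUT3 (ENSG00000178202, GRCh38 chr11:108472105-108498432, minus strand) was at 50.8, 73.8, 64.3 and 64.0 CPM without induction and at 57.4, 79.4, 75.4 and 74.2 CPM after it. The induced library was higher in 4 of 4 same-numbered pairs, by 0.17, 0.10, 0.23 and 0.21 on the log2 scale, while the groups overlapped. Its mean was 63.2 ± 9.44 CPM in non-induced and 71.6 ± 9.73 CPM in induced cells. This gave a log2 change of 0.18 (SE 0.13, edgeR adjusted p = 0.759) without the block and 0.18 (SE 0.042, edgeR adjusted p = 0.0113) with it. The call with the block was lost without pair 3 (adjusted p = 0.0891 in edgeR), without pair 4 (0.0646) and in DESeq2 (0.0797).

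POGLUT1 (ENSG00000163389, GRCh38 chr3:119468938-119494708, plus strand) was at 23, 19.0, 20.2 and 20.2 CPM without induction and at 23.1, 20.5, 20.9 and 16.3 CPM after it. The groups overlapped, and induced library 4 was the lowest of all. The log2 change with the block was -0.028 (95% interval -0.18 to 0.13, edgeR adjusted p = 0.846). POGLUT2 (ENSG00000134901, GRCh38 chr13:102784281-102799007, minus strand) was at 16.1, 13.5, 11.7 and 13.9 CPM without induction and at 17.2, 13.0, 11.4 and 13.9 CPM with it. Same-numbered POGLUT2 values lay close together and the libraries numbered 1 were highest in both groups. Its log2 change with the block was 0.0032 (95% interval -0.15 to 0.16, edgeR adjusted p = 0.984), whose upper end is 1.12-fold.

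Per exon length, POGLUT3 made up 50.3 to 66% of the 3 glucosyltransferase transcripts over the 8 libraries, POGLUT2 21.1 to 33.7% and POGLUT1 9.96 to 16%. By the longest transcript, POGLUT1 made up 16.1 to 24.8%. POGLUT3 was therefore the most abundant of the 3 in every library under both lengths, and its share was lowest in the libraries numbered 1 (50.3% non-induced and 52.2% induced).

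**Figure D3:**
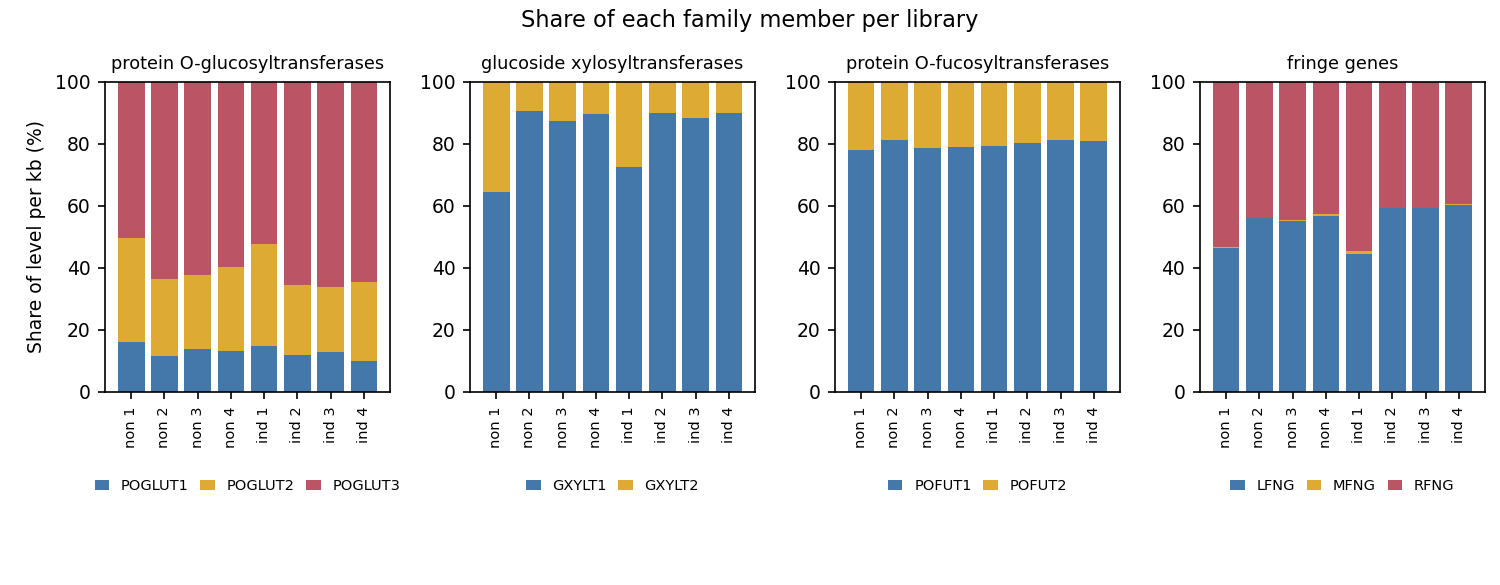
Share of each gene in the summed level per kb of its family (vertical axis, %) in every library, non-induced (non) 1 to 4 and induced (ind) 1 to 4. GXYLT2 takes 35.5% and 27.5% of the glucoside xylosyltransferases in the libraries numbered 1 and 9.34 to 12.7% in the rest, while POFUT1 stays at 78.1 to 81.1% of the fucosyltransferases.

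The next enzymes lengthen O-glucose. GXYLT1 adds the first xylose, and it was the only one of the 10 genes whose groups did not overlap, against 1101 of the 15637 tested genes (7.04%). GXYLT1 (ENSG00000151233, GRCh38 chr12:42081845-42144879, minus strand) was at 35.9, 49.1, 45.3 and 47.1 CPM without induction and at 49.2, 50.8, 52.3 and 52.4 CPM after it. Non-induced library 1 was low, and the highest non-induced value (49.1) lay just under the lowest induced one (49.2 CPM). Means were 44.4 ± 5.87 and 51.2 ± 1.49 CPM, and the pairs differed by 0.46, 0.048, 0.21 and 0.15 on the log2 scale. This gave a log2 change of 0.21 (SE 0.094, edgeR adjusted p = 0.551) without the block and 0.21 (SE 0.059, edgeR adjusted p = 0.0311) with it. Pair 1 carried the largest difference, and without it the log2 change with the block was 0.13 (edgeR adjusted p = 0.139). The call was also lost without pair 3 (0.0965) and pair 4 (0.0983), both adjusted p in edgeR, and in DESeq2 (adjusted p = 0.105).

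GXYLT2 (ENSG00000172986, GRCh38 chr3:72888073-72998138, plus strand) does the same reaction and was the least abundant gene of the 10. It was at 9.65, 2.47, 3.22 and 2.63 CPM without induction and at 9.11, 2.76, 3.33 and 2.84 CPM after it, from 194, 53, 69 and 44 and from 180, 63, 70 and 54 reads. The libraries numbered 1 were high in both groups, at 3.39-fold and 3.00-fold the mean of the other 3 after 0.1 CPM was added to each value. Of tested genes 1.98% stood apart at least as far in both groups. No difference with induction was detectable: the log2 change was 0.028 with the block (95% interval -0.23 to 0.28, edgeR adjusted p = 0.98), and without it the interval ran from -1.06 to 1.06. GXYLT2 shares 62 exon bases with PPP4R2, a gene on the same strand with 19238 reads over all libraries, and how the authors' counting treated that overlap is not given in the sources used here.

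XXYLT1 (ENSG00000173950, GRCh38 chr3:195068279-195271167, minus strand), which adds the second xylose, was at 19.9, 23.2, 20.4 and 20.3 CPM without induction and at 21.5, 20.5, 23.6 and 22.8 CPM after it. The groups overlapped, and library 2 was the highest without induction and the lowest with it. The log2 change with the block was 0.074 (SE 0.071, edgeR adjusted p = 0.545).

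**Figure D4:**
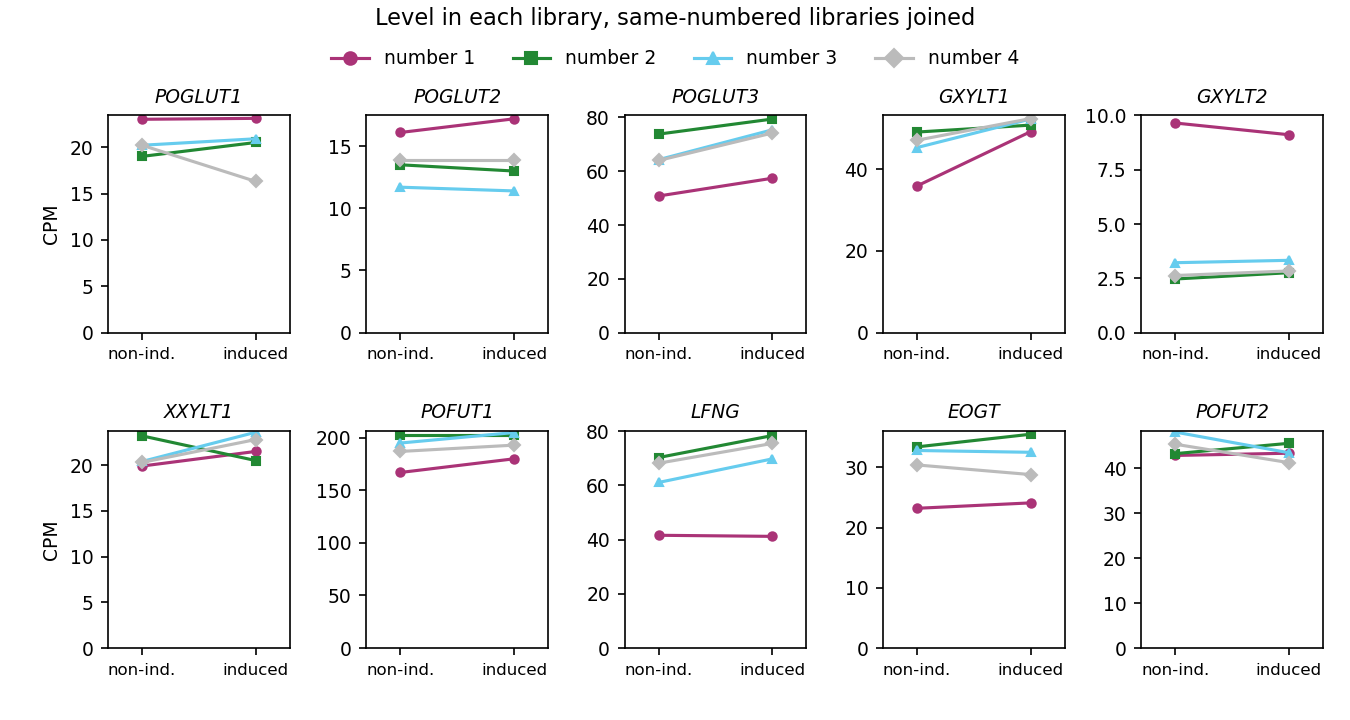
CPM (vertical axes, each from 0) of each gene in non-induced (left) and induced (right) libraries, with same-numbered libraries joined by a line. All 4 lines slope up for POGLUT3 and GXYLT1, and for GXYLT2 and LFNG the libraries numbered 1 lie apart from the other 3.

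POFUT1 starts the fucose branch and ranked highest per length. POFUT1 (ENSG00000101346, GRCh38 chr20:32207880-32238667, plus strand) was at 167, 203, 195 and 187 CPM without induction and at 180, 203, 205 and 193 CPM after it. The groups overlapped, and library 1 was lowest in each. The log2 change with the block was 0.056 (95% interval -0.02 to 0.13, edgeR adjusted p = 0.329). POFUT2 (ENSG00000186866, GRCh38 chr21:45263928-45287898, minus strand), which fucosylates thrombospondin repeats instead, was at 42.8, 43.2, 48.0 and 45.3 CPM without induction and at 43.3, 45.5, 43.4 and 41.2 CPM with it. Library 1 differed from the mean of the other 3 by -0.089 and -0.003 on the log2 scale in the groups without and with induction, and the log2 change with the block was -0.047 (95% interval -0.15 to 0.061, edgeR adjusted p = 0.594). Per exon length POFUT1 made up 78.1 to 81.1% of both transcripts together.

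LFNG (ENSG00000106003, GRCh38 chr7:2512529-2529177, plus strand), the fringe enzyme that lengthens O-fucose, was at 41.6, 70.3, 61.1 and 68.2 CPM without induction and at 41.2, 78.4, 69.8 and 75.5 CPM after it. The libraries numbered 1 were low, at 0.626 and 0.553 of the mean of the other 3, a gap that 8.68% of tested genes matched or passed in both groups. LFNG was higher after induction in 3 of 4 pairs, by 0.16, 0.19 and 0.15 on the log2 scale in pairs 2 to 4 and by -0.013 in pair 1. It missed the threshold with the block (log2 change 0.13, SE 0.045, edgeR adjusted p = 0.0777) and passed it without pair 1 (log2 change 0.16, edgeR adjusted p = 0.0388). Among the fringe genes LFNG made up 44.5 to 60.4% and RFNG 39.4 to 54.5% of the level per kb, with RFNG ahead in both libraries numbered 1. By the longest transcript RFNG was ahead in induced library 1 alone (50.9 against 48.0%). MFNG, with 58 reads in all, made up 0.0455 to 0.983%.

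EOGT (ENSG00000163378, GRCh38 chr3:68975214-69013961, minus strand) was at 23.2, 33.4, 32.8 and 30.4 CPM without induction and at 24.1, 35.5, 32.5 and 28.8 CPM after it. Libraries numbered 1 were lowest in both groups, which overlapped. The log2 change with the block was 0.013 (95% interval -0.10 to 0.13, edgeR adjusted p = 0.901).

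Differences between library numbers were larger than those with induction for most of the 10 genes. GXYLT2 and LFNG, 2 of 10 (20.0%), differed at least 1.5-fold between library 1 and the mean of the other 3 in the same direction in both groups, against 1698 of 15637 tested genes (10.9%). GXYLT2, POGLUT1 and POGLUT2 were higher in the libraries numbered 1, and LFNG, EOGT, POGLUT3, POFUT1 and GXYLT1 were lower in both. For GXYLT1 the log2 differences were -0.4 without and -0.075 with induction. POFUT2 (-0.089 and -0.003) and XXYLT1 (-0.1 and -0.05) differed little, and their induced library 1 lay within the range of the other 3. Over the 8 libraries, which share these numbers, Pearson's r of log2 CPM was -0.963 between LFNG and GXYLT2, 0.946 between POGLUT3 and POFUT1 and 0.925 between POGLUT3 and LFNG, given as a description. On the same measure the tested protein-coding genes most like POGLUT3 were ANKEF1 (0.991), TADA2B (0.987) and APBB1IP (0.985), and those most like GXYLT1 were DGCR2 (0.98), PRPF18 (0.978) and ELFN2 (0.97). For LFNG they were TRIM68 (0.994), ARL2BP (0.992) and MEGF6 (0.991), for POFUT1 B4GALT6 (0.986), CLASP1 (0.986) and MTMR6 (0.983), and for POGLUT1 NOL9 (0.971), AHI1 (0.949) and ERAP2 (0.942).

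CRB2 rose while no change of POGLUT1, POFUT1 or EOGT was detected, and the ratio of CRB2 to these transcripts shifted. Per exon length there were 0.404, 1.53, 1.46 and 1.21 CRB2 transcripts for each POGLUT1 transcript without induction and 83.8, 232, 246 and 308 after it. The groups were far apart, and library 1 had the lowest ratio in each. The ratio went from 0.0503 to 0.137 up to 9.74 to 23.5 for POFUT1, and from 0.318 to 0.715 up to 64.0 to 138 for EOGT. With the longest transcript of each gene, a setting added after seeing the data, the ratio to POGLUT1 was 0.234 to 0.887 without induction and 48.6 to 178 after it, so whether non-induced cells held more CRB2 or more POGLUT1 transcripts depends on the length used. These ratios use annotated lengths, while the length of the construct is not given in the sources used here, and the counts do not separate construct from native CRB2.

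The promoters of the genes called with the block are shown because these genes were higher in all 4 pairs. Sequences are from RefSeq (GRCh38.p14), 250 bases before to 50 after the start, on the gene's strand, and capitals mark GC boxes (GGGCGG on either strand), with 5 in the POGLUT3 promoter (chr11:108498335-108498634) and 3 in that of GXYLT1 (chr12:42144825-42145124).
POGLUT3 promoter: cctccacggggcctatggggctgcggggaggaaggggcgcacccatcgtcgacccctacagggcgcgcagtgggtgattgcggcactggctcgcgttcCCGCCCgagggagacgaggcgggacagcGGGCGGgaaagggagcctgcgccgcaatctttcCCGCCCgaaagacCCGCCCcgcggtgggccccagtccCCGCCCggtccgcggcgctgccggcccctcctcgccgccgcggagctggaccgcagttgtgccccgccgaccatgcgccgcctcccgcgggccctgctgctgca
GXYLT1 promoter: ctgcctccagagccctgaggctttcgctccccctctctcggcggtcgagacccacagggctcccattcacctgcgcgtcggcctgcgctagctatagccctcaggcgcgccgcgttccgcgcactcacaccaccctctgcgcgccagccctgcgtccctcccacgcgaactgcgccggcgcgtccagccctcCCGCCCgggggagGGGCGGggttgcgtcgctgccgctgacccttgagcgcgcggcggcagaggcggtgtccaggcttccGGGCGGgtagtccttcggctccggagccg
Both are rich in G and C, at 76.3% and 74.0% of bases. Of the 10 genes, 9 had an entry and EOGT had none. The GC box was found in 8 of 9, beside 45% of 35116 promoters of the same length. That background was not matched to the 9 by expression or by G and C content. CCAAT on either strand was in 3 of 9 (POGLUT2, XXYLT1 and LFNG; 34.6% of all promoters), and TGGGAA, the core bound by the Notch cofactor RBPJ, in 3 of 9 (POGLUT1, POFUT2 and LFNG; 24%). TGACGTGG, a core of unfolded protein response elements, was in 0 of 9 and in 0.729% of all promoters. These are letter matches only, and different motifs can overlap where their ends share letters.

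Other genes of the same pathways were taken from lists by pathway, 53 of whose 68 genes were tested. Without the block 1 of these 53, CRB2 itself, was called higher and 0 lower, and with the block 7 were higher and 4 lower, where 7.51% of all tested genes were called higher and 13.8% in either direction. Of the other glycosyltransferases of these repeats 3 of 4 were tested and 0 called in either fit: the fringe enzyme RFNG was at 57.5 ± 3.58 and 56.9 ± 2.87 CPM, the glucosyltransferase of thrombospondin repeats B3GLCT at 21.5 ± 3.04 and 22.6 ± 4.08, and the galactosyltransferase B4GALT1 at 165 ± 18.5 and 168 ± 28.9 CPM in non-induced and induced cells. The list had a median log2 change of 0.012 with the block.

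Of the genes that supply the sugar donors 18 of 18 were tested, with 0 called without the block, and 1 higher and 2 lower with it, where 13.8% of all tested genes were called. For GDP-fucose, the donor of POFUT1 and POFUT2, 6 of 6 genes were tested and 0 were called in either fit. Its Golgi transporter candidate SLC35C2 was at 78.2 ± 3.02 and 75.2 ± 3.05 CPM, FPGT of the fucose salvage route at 6.04 ± 0.709 and 6.63 ± 1.2, and GMDS, which starts synthesis from GDP-mannose, at 15.5 ± 2.78 and 16.2 ± 1.47 CPM. For UDP-glucose and UDP-xylose, the donors of the POGLUT, GXYLT and XXYLT1 enzymes, 6 of 6 were tested, with 0 higher and 1 lower with the block. The gene that fell was UXS1, which makes UDP-xylose: it was at 49.5, 67.3, 73.0 and 68.4 CPM without induction and at 45.4, 65.5, 59.8 and 51.1 CPM after it, lower in 4 of 4 pairs though the groups overlapped. Its log2 change with the block was -0.22 (SE 0.057, edgeR adjusted p = 0.0259), and the call was lost without pair 3 (adjusted p = 0.107 in edgeR) or pair 4 (0.124) and in DESeq2 (0.0585). UGP2, which makes UDP-glucose, was at 80.5 ± 8.7 and 87.2 ± 12.3 CPM (adjusted p = 0.0931 in edgeR with the block), and the UDP-xylose transporter SLC35B4 at 39.6 ± 2.81 and 42.7 ± 2.5 CPM (0.143).

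UDP-N-acetylglucosamine is the donor of EOGT and LFNG, and 6 of 6 of its genes were tested, with 1 higher and 1 lower with the block and 0 without. Both are isoenzymes of the entry step of the hexosamine pathway. GFPT1 rose with the block (129 ± 8.57 to 142 ± 8.61 CPM, log2 change 0.14, SE 0.036, edgeR adjusted p = 0.0179), a call lost without pair 3 (adjusted p = 0.0623) or pair 4 (0.0939) and in DESeq2 (adjusted p = 0.0896). The far less abundant GFPT2 was at 0.895, 5.18, 5.65 and 3.47 CPM without induction and at 0.304, 3.19, 2.76 and 1.84 CPM after it. It was lower in 4 of 4 pairs and lowest in the libraries numbered 1, and it fell with the block by 0.92 on the log2 scale (SE 0.16, edgeR adjusted p = 0.00181). PGM3 of the same pathway was at 98.3 ± 11.1 and 90.4 ± 20.3 CPM (adjusted p = 0.21 in edgeR with the block).

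**Figure D5:**
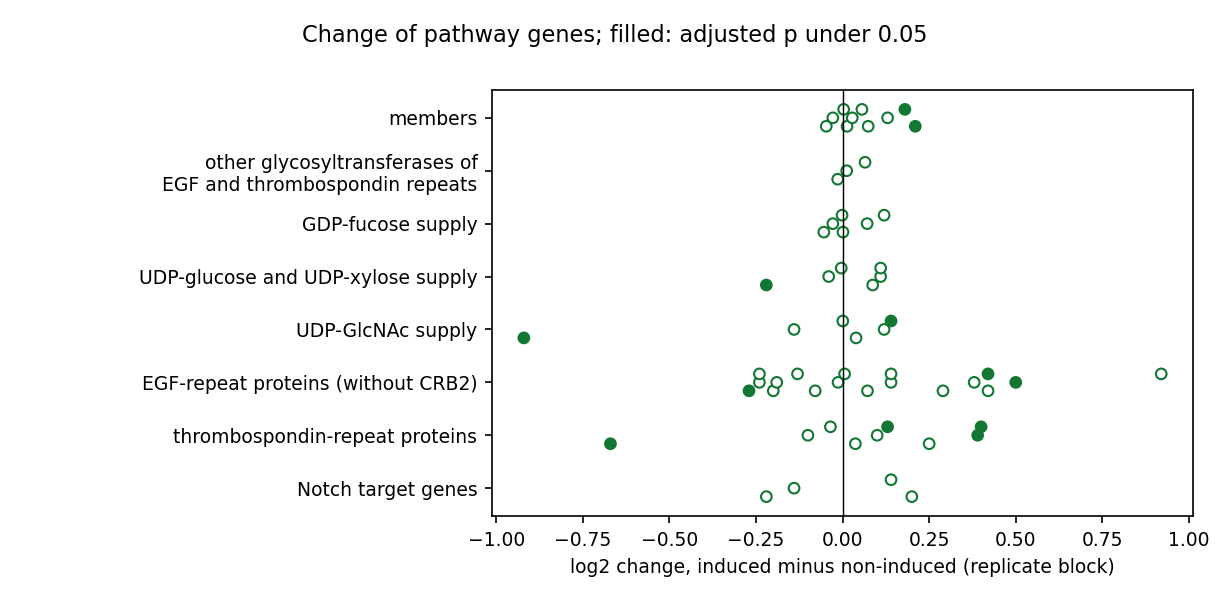
Log2 change between induced and non-induced libraries with the replicate block (horizontal axis) for the tested genes of each list, CRB2 left out, filled where the adjusted p was under 0.05. Of the 10 glycosyltransferases 2 are filled, and GFPT2 (-0.92) and ADAMTS9 (-0.67) are the lowest filled points.

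Known or likely substrates of the enzymes were listed by repeat type. Of 25 EGF-repeat proteins 19 were tested, with 1 higher (CRB2) without the block, and 3 higher and 1 lower with it, against the same 13.8% of all genes. Apart from CRB2, the genes called with the block are named here after their values were seen. HSPG2, which encodes the basement membrane proteoglycan perlecan, rose from 312 ± 33.1 to 416 ± 35.9 CPM (log2 change 0.42, SE 0.037, edgeR adjusted p = 1.17e-05). Its groups did not overlap, as was so for 7.04% of all tested genes. FAT1, an atypical cadherin of the podocyte slit diaphragm, rose from 208 ± 28.7 to 296 ± 44.9 CPM (log2 change 0.50, SE 0.054, edgeR adjusted p = 3.55e-04), with overlapping groups. LTBP4, a latent TGF-beta binding protein, fell from 126 ± 6.59 to 105 ± 11.7 CPM (log2 change -0.27, SE 0.063, edgeR adjusted p = 0.0206), a call lost without pair 4 (adjusted p = 0.106). The groups of LTBP4 did not overlap either. The receptor NOTCH2, also named after its values were seen, was at 178 ± 23.7 and 218 ± 28.4 CPM (edgeR adjusted p = 0.0973 with the block) and NOTCH1 at 30.8 ± 7.79 and 33.8 ± 4.89 CPM (0.143). The Notch ligand JAG1, named the same way, was at 24.2 ± 6.24 and 48.5 ± 26 CPM, higher in 4 of 4 pairs with overlapping groups (log2 change 0.92, SE 0.19, edgeR adjusted p = 0.0602 with the block). The list's median log2 change with the block was 0.072.

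Of 14 thrombospondin-repeat proteins, the substrates of POFUT2 and B3GLCT, 9 were tested, with 0 called without the block and 3 higher and 1 lower with it, again beside 13.8% of all genes. The secreted protein ADAMTSL1 rose from 21.4 ± 1.85 to 28.1 ± 3.61 CPM (log2 change 0.39, SE 0.071, edgeR adjusted p = 0.00309), and its groups did not overlap. The protease gene ADAMTS5 rose from 115 ± 11.3 to 153 ± 26.1 CPM (log2 change 0.40, SE 0.072, edgeR adjusted p = 0.0119), with overlapping groups. ADAMTS9, another protease of the family, fell from 15.2 ± 11.2 to 8.89 ± 3.54 CPM (log2 change -0.67, SE 0.14, edgeR adjusted p = 0.0157). Its non-induced library 1 was high, at 31.8 CPM against 8.37 to 11.6 in the other 3, and without pair 1 the log2 change with the block was -0.43 (edgeR adjusted p = 0.0165). Without the block and that library it was -0.11. Without pair 4 the calls of ADAMTS5 (0.104) and ADAMTS9 (0.0602), both adjusted p in edgeR, were lost. THBS1, named after its values were seen, encodes the matrix protein thrombospondin-1 and was at 3734 ± 2147 and 4079 ± 2324 CPM, with a log2 change of 0.13 (SE 0.038, edgeR adjusted p = 0.0398). Its call was lost without pair 1 (adjusted p = 0.0678 in edgeR), pair 3 (0.300) or pair 4 (0.172) and in DESeq2 (0.0687).

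Of 7 Notch target genes 4 were tested and 0 were called in either fit. HES4 was at 27.5 ± 2.2 and 24 ± 5.16 CPM (edgeR adjusted p = 0.131 with the block), HES1 at 6.19 ± 1.51 and 7.23 ± 2.49 CPM (0.277) and HEY1 at 2.15 ± 0.573 and 1.94 ± 0.507 CPM (0.629). These encode transcriptional repressors of the Hes and Hey family, and their values went in both directions.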

How the data were processed

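RNA of 8 libraries (4 per group) was read as single reads of 75 bases after directional library preparation, per the labels. The authors deposited raw counts per Ensembl gene. The build is GRCh38, and the tools named are HISAT2 2.1.0, HTSeq 0.11.1, bcl2fastq, Trimmomatic 0.38 and DESeq2 1.24.0, per the submitters' processing notes. Their order, the strand setting and the annotation release were not given in the sources used here. Gene positions and lengths came from GENCODE 29, which held 58275 of the 58395 gene identifiers. The deposited normalized table was not used.

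Genes were filtered with filterByExpr (minimum count 10), scaled by TMM and tested with edgeR 4.0.16 (R 4.3.3; quasi-likelihood, robust, two-sided, Benjamini-Hochberg over 15637 genes, threshold 0.05). SE are derived from the test statistic, and CPM uses TMM-scaled totals. Comparisons of library 1 with the mean of the other 3 were made after adding 0.1 CPM to each value. A library with 0 reads of a gene allows up to 3 counts, or 0.131 to 0.179 CPM, for counting error only.

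Same-numbered libraries deviated together across 11502 genes (r = 0.911, 0.704, 0.707 and 0.648; other pairs -0.775 to 0.667), so a fit with the replicate block stands beside the one without. This pairing comes from the numbers and the data, and what a number stands for is not in the labels. Libraries numbered 1 stand apart, which raises these correlations too.

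The members and lists were chosen with earlier results of these data known. Named were all members, CRB2, from each list every gene called without the block or else up to 3 with the smallest p with it, and the 3 genes most correlated with called members, POGLUT1, POFUT1 and LFNG. A part of the rule on protein motifs was not run, since no protein table was used here. Alternatives were DESeq2 1.42.0, other scalings and filters, no robust estimation and left-out libraries. Values of some withheld genes are left out.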

Additional observations from a re-analysis of the deposited data

Results flagged for a closer look

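In 2 of the 10 genes a single library lay far from the other 3 of its group, measured as its gap to the nearest library over the range of the group. GXYLT2 was at 9.65 CPM in non-induced library 1 (gap over range 0.896) and at 9.11 CPM in induced library 1 (0.909), with the other libraries at 2.47 to 3.33 CPM. XXYLT1 was at 23.2 CPM in non-induced library 2 (0.831), with the other non-induced libraries at 19.9 to 20.4 CPM. These are 3 of 20 combinations of gene and group, and chance gives about 1 in 20.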

How the results depend on the processing

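Calls depended mainly on the replicate block. Genes called without the block numbered 6, and 2159 with it, 188 in DESeq2, 37 without a filter, 543 without both libraries numbered 1 and 3 to 16 with 1 library left out. With the block, DESeq2 gave 1048 and leaving out a pair 909 to 1969 (1254 without pair 3, 909 without pair 4). Of the 10 glycosyltransferases, 0 were called without the block and 2 with it, 0 in DESeq2 with the block and 0 to 2 with a pair left out. The 53 pathway genes gave 1 call without and 11 with the block, 3 in DESeq2, 3 without both libraries numbered 1, and, with the block, 6 to 15 with a pair left out. The calls of POGLUT3 and GXYLT1 with the block held under the 4 scaling and fitting settings chosen after seeing the data (RLE, upper quartile, library totals, no robust estimation).

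Log2 changes near 0 turned sign. Without the block, leaving out 1 library gave -0.10 to 0.056 for POGLUT1, -0.11 to 0.091 for POGLUT2, -0.60 to 0.69 for GXYLT2, -0.091 to 0.10 for EOGT, -0.006 to 0.30 for LFNG and -0.23 to 0.48 for THBS1. POGLUT2 was at -0.0014 under upper-quartile scaling and EOGT at -0.0024 and POGLUT2 at -0.032 without both libraries numbered 1. GXYLT2 was at 0.028 with the replicate block, 0.00019 in DESeq2, 0.0093 by library totals and 0.091 without both libraries numbered 1. With the block, leaving out a pair gave -0.075 to 0.049 for POGLUT1, -0.035 to 0.025 for POGLUT2 (-0.0025 without pair 4), -0.0043 to 0.10 for GXYLT2 and -0.015 to 0.037 for EOGT (-0.0026 without pair 1), and POGLUT2 was at -9.4e-05 in DESeq2, -0.00021 under RLE and -0.0061 under upper-quartile scaling. The causes were not tested. GXYLT2 had the fewest reads of the 10 genes, 44 to 194 per library.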
